A study of Homo sapiens with 8 samples.

Results

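The S100 family genes S100A7, S100A8, S100A9, S100A2, S100A4, S100A6, S100A10, S100A11, S100A14 and S100A16 were followed by RNA-seq in MCF10A cells, an immortalized but non-malignant human mammary epithelial line, cultured inside hydrogels. They were chosen by name, as 10 of the 25341 genes listed by symbol, and all 10 were among the 13349 genes with enough signal to be tested. Cells were encapsulated for 7 days in 4 gels, with 2 libraries per gel. Soft IPNs (interpenetrating networks) and stiff IPNs held alginate and reconstituted basement membrane (rBM), and the alginate of the stiff IPNs was crosslinked with calcium. Soft col:rBM gels held type 1 collagen (col-1) with rBM, and stiff col gels held col-1 at higher density. The name stiff col lists no rBM, but the paper's methods give rBM at a fixed concentration for all experiments, so its absence is not certain. Stiffness and calcium therefore cannot be told apart between the IPNs, nor stiffness, col-1 density and any loss of rBM between soft col:rBM and stiff col. Between stiff col and stiff IPN the col-1, the alginate, the calcium and possibly the rBM all change together. All 8 libraries come from 1 cell line.

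S100 proteins are small calcium sensors built around a pair of EF-hand loops, and most work as dimers that change shape on binding calcium and then grip a partner protein. Some stay inside the cell, where they bind annexins, cytoskeletal motors or p53. Others leave it as alarmins, which signal through receptors such as RAGE (AGER) and TLR4. In skin and breast epithelium S100A7 (psoriasin), S100A8 and S100A9 are low at rest and are known for their rise in inflammation, wounding and carcinoma in situ. All 10 genes lie in the S100 gene cluster on chromosome 1 (hg19), with S100A10 (chr1:151955391-151966335) and S100A11 (chr1:152004982-152020383) apart from the rest. S100A9 (chr1:153330330-153333499), S100A8 (chr1:153362508-153363549) and S100A7 (chr1:153430220-153433127) lie together, and each is spliced from 3 exons. The others are S100A6 (chr1:153507075-153508720), S100A4 (chr1:153516089-153522612), S100A2 (chr1:153533584-153540366), S100A16 (chr1:153579362-153585621) and S100A14 (chr1:153586731-153589462).

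The 60 bases before the start of the canonical transcript are shown for the 3 genes that differed most between gels and for the S100A7 copy S100A7A. They are also shown for 3 genes not called between the IPNs (hg19, 5′ to 3′ on the gene's strand). Capitals mark TATAAA, the core of a TATA box, or in S100A2 a match to TGANTCA, the AP-1 site.
S100A7: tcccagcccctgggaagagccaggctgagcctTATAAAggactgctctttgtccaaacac
S100A7A: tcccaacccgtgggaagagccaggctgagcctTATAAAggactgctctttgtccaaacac
S100A8: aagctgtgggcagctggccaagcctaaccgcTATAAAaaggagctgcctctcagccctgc
S100A9: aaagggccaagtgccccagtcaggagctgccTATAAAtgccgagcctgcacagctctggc
S100A4: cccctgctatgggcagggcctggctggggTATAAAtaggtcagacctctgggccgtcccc
S100A6: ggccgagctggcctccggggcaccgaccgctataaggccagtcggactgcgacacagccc
S100A2: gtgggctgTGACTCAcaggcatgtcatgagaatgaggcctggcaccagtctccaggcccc

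These windows are chr1:153433128-153433187 for S100A7, chr1:153388936-153388995 for S100A7A, chr1:153363550-153363609 for S100A8, chr1:153330270-153330329 for S100A9, chr1:153518283-153518342 for S100A4, chr1:153508468-153508527 for S100A6 and chr1:153538321-153538380 for S100A2. The TATA core was searched on the gene's strand in the 250 bases before the start and was found in 4 of the 10 genes, S100A7, S100A8, S100A9 and S100A4, beginning 28, 29, 29 and 31 bases before it. Of 19837 promoters of the same length, 6.82% held it. The AP-1 site, searched like those below on both strands, was found in S100A2 alone of the 10, and 4.69% of promoters held it. The STAT site TTCNNNGAA (5.68% of promoters) was found in none of the 10, and the TEAD site GGAATG (9.84%) in S100A16. The letters TTGCNNNAA (6.15%), searched with C/EBP in mind, were also found in none. Their spacing is not that of the C/EBP consensus, so C/EBP sites themselves were not searched. The windows of S100A7 and S100A7A were identical at 58 of 60 bases. A match is a description of the letters and says nothing of whether a factor binds there.

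Values below are normalized counts, which are read counts multiplied by 1 factor per library. Dividing the normalized totals by these factors, which were themselves estimated, gave between 13044607 and 18549928 reads on genes per library. The paper gives a higher depth of filtered reads, from paired-end sequencing. With the estimated factors, 3 reads, taken as the limit of detection, correspond to 2.41 to 3.73 normalized counts. The basal mammary markers KRT5, KRT14, KRT17, TP63 and ITGB4 summed to between 45555 and 129324 in each library, and all 5 were high enough to test. Their changes between gels are given below beside the markers of white blood cells. The libraries differed by trial (replicate number) as well as by gel. Changes were therefore fitted by limma without the trial and with the trial as a block. For some changes only the adjusted p with the block is printed. In bulk RNA, fewer cells of a type and less RNA per cell cannot be told apart.

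S100A7, S100A8 and S100A9 were higher in stiff IPNs than in any other gel. S100A7, the psoriasin gene, had 9 and 12 normalized counts in soft IPN libraries, 395 and 586 in the stiff IPN ones, 5 and 2 in soft col:rBM and 0 and 11 in stiff col. It was thus near the limit of detection everywhere but in stiff IPNs, and neither stiff IPN library came close to any other. S100A8 had 623 and 877 in soft IPN libraries, 2109 and 3930 in stiff IPN ones, 241 and 332 in soft col:rBM and 629 and 964 in stiff col. S100A9, which pairs with S100A8 to form calprotectin, had 1673 and 1720, 4303 and 5671, 731 and 742, and 1876 and 1733 in the same order of gels. Both calprotectin genes were clearly detected in all 8 libraries, were highest in stiff IPNs and lowest in soft col:rBM, and had soft IPN and stiff col libraries between these.

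**Figure D1:**
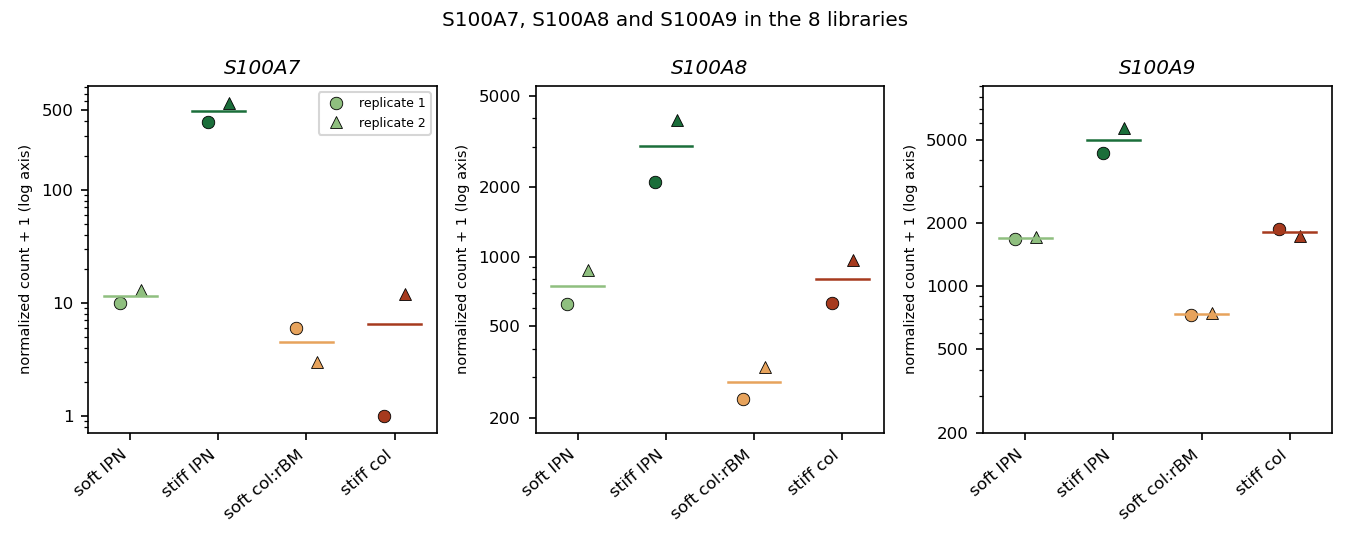
Normalized counts + 1 (log axis) of S100A7, S100A8 and S100A9 in the 4 gels, with replicate 1 as a circle, replicate 2 as a triangle and the mean of both as a line. The 2 stiff IPN libraries lie above all others in each panel, and for S100A8 and S100A9 the 2 soft col:rBM libraries lie below all others.

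Stiff IPNs compared with soft IPNs address stiffness at a constant protein content. The mean was 46.7-fold higher for S100A7, from 10.5 ± 2.12 to 490.5 ± 135 normalized counts (SD, n = 2 each). For S100A8 it was 4.03-fold higher, from 750 ± 180 to 3019.5 ± 1288, and for S100A9 2.94-fold higher, from 1696.5 ± 33.2 to 4987 ± 967. Within each trial the direction was the same, with log2 differences of 5.31 and 5.50 for S100A7, 1.76 and 2.16 for S100A8, and 1.36 and 1.72 for S100A9. The paper, from the same libraries, already reports S100A7 as its most upregulated gene in stiff IPNs. Its listed fold change for S100A7 is smaller than the ratio of means given here.

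With the trial as a block, 3 of the 10 genes were called in limma at an adjusted p under 0.05, all 3 higher in stiff IPNs, where 3.83% of all genes tested were called. S100A7 rose by 5.40 on the log2 scale (SE 0.91, adjusted p 0.0314), S100A8 by 1.96 (SE 0.16, adjusted p 0.0061) and S100A9 by 1.54 (SE 0.16, adjusted p 0.0082). Without the block 0 of the 10 passed and 0.0% of all genes did, with adjusted p of 0.410, 0.410 and 0.243 for these genes. Unadjusted, 3 of the 10 and 1245 of the 13349 genes then had a p under 0.05. Without soft IPN replicate 1 the blocked call of S100A7 was lost and 2 of the 10 remained called, and without soft IPN replicate 2 no call was left. Over all alternatives run, the adjusted p by limma ranged from 3.32e-05 to 0.999 for S100A7, from 0.000344 to 0.999 for S100A8 and from 0.000495 to 0.999 for S100A9.

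The other 7 genes did not pass in either fit. The libraries of both IPNs did not overlap for 5 of the 10 genes, S100A7, S100A8 and S100A9 upwards and S100A10 and S100A16 downwards, against 41.9% of all genes, so a lack of overlap alone is near the background. The median change of the 10 genes was 0.00 on the log2 scale beside -0.01 for all genes tested.

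**Figure D2:**
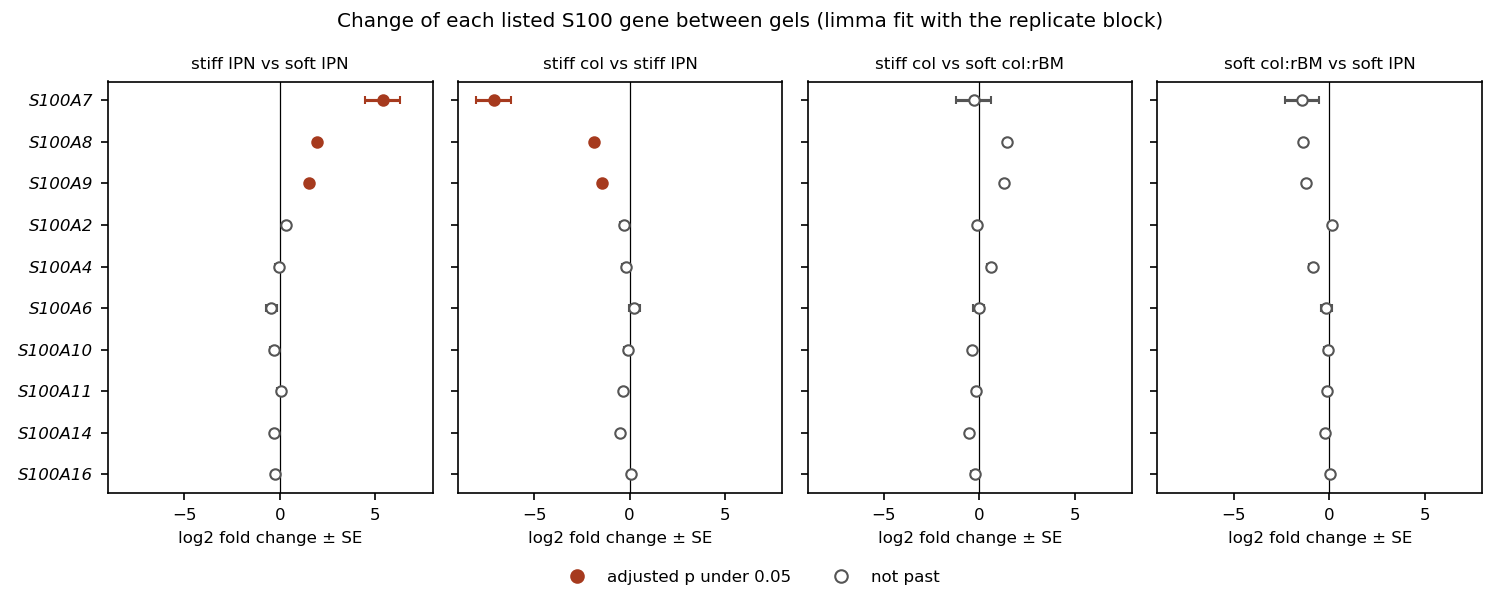
Log2 fold change of each of the 10 genes in 4 comparisons of gels, with the SE of the limma fit that has the trial as a block. Filled red points passed an adjusted p of 0.05, which holds for S100A7, S100A8 and S100A9 in the first 2 panels, and open points did not.

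Stiff col compared with stiff IPNs shares the stiff IPN libraries with the comparison above, so its values are not a second, separate measurement of them. S100A7 was 5.5 ± 7.78 normalized counts in stiff col beside 490.5 ± 135 in stiff IPNs, S100A8 796.5 ± 237 beside 3019.5 ± 1288, and S100A9 1804.5 ± 101 beside 4987 ± 967 (SD, n = 2 each). With the block the same 3 genes were called, all lower in stiff col, where 2.47% of all genes were called. S100A7 fell by 7.12 on the log2 scale (SE 0.91, adjusted p 0.0135), S100A8 by 1.89 (SE 0.16, adjusted p 0.0049) and S100A9 by 1.45 (SE 0.16, adjusted p 0.0078). The size for S100A7 rests on a library listed at 0, and with 5 in place of 1 added before the logarithm the gene fell by 5.76. It fell by 5.32 without stiff col replicate 1 and fell by 8.92 without stiff col replicate 2, and was called with the block in both.

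Without the block 0 of the 10 genes passed in limma, 0.0% of all genes did, and 3 of the 10 and 838 of all genes had an unadjusted p under 0.05. The adjusted p was then 0.224 for S100A7, 0.330 for S100A8 and 0.157 for S100A9, and over all alternatives it ranged from 0.000232, 0.000540 and 0.000729 in turn to 1.0. The blocked call of S100A7 was lost when either soft IPN library was left out. With the block and 1 library left out, the log2 difference was -2.07 to -1.70 for S100A8 and -1.66 to -1.25 for S100A9. Libraries did not overlap for 5 of the 10, all lower in stiff col (S100A2 and S100A11 besides these 3), against 30.9% of all genes. The median change of the 10 genes was -0.32 beside 0.00 for all genes.

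In the collagen gels S100A8 and S100A9 were also higher in the stiffer gel, while S100A7 stayed near the limit of detection in both. Stiff col exceeded soft col:rBM 2.78-fold for S100A8 and 2.45-fold for S100A9, with log2 differences within trials of 1.38 and 1.54 for S100A8 and 1.36 and 1.22 for S100A9. The limma fit with the block gave 1.46 (SE 0.16, adjusted p 0.0869) for S100A8 and 1.29 (SE 0.16, adjusted p 0.113) for S100A9. Neither passed, with adjusted p over all alternatives from 4.52e-07 to 1.0 for S100A8 and from 1.97e-07 to 1.0 for S100A9, and 0 of the 10 genes and 0.0% of all genes did in either fit. Unadjusted, limma gave 2 of the 10 genes and 140 of all genes a p under 0.05 without the block, and 4 and 497 with it. S100A4, a binding partner of nonmuscle myosin, had 827 and 995 in soft col:rBM and 1309 and 1458 in stiff col, a log2 difference of 0.61 (SE 0.19, adjusted p 1.0 with the block). Libraries did not overlap for 5 of the 10 genes, against 19.0% of all genes.

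This comparison is the one most changed by which gels enter the fit. When limma was fitted to these 2 gels alone, with the block, 6 of the 10 genes and 7.28% of all genes passed. S100A8, S100A9 and S100A4 were higher in stiff col, and S100A10 (-0.37), S100A14 (-0.56) and S100A16 (-0.25 on the log2 scale) were lower. The same fit without the block called none of the 10.

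Soft col:rBM compared with soft IPN addresses col-1 in place of alginate in a soft gel, and reuses libraries of the comparisons above. S100A8 was 286.5 ± 64.3 normalized counts beside 750 ± 180 and S100A9 736.5 ± 7.78 beside 1696.5 ± 33.2 (SD, n = 2 each). The log2 differences with the block were -1.38 (SE 0.16, adjusted p 0.0515 by limma) for S100A8 and -1.20 (SE 0.16, adjusted p 0.0713) for S100A9. Neither passed the threshold, and without the block both adjusted p lay far above it. Over all alternatives the adjusted p of each ranged from 0.00149 to 1.0. S100A4 was 911 ± 119 beside 1717.5 ± 624, a difference of -0.87 (SE 0.19, adjusted p 0.548). Of the 10 genes 0 passed in either fit, as did 0.0% of all genes, while 3 of the 10 had an unadjusted p under 0.05 in each fit, beside 190 of all genes without the block and 635 with it. Libraries did not overlap for 4 of the 10, S100A7, S100A8, S100A9 and S100A4, all lower in soft col:rBM, against 20.8% of all genes.

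Whether the stiff gel differed from the soft one by the same amount in collagen gels and in IPNs was tested as the difference between both changes. In the collagen pair col-1 density and possibly rBM change with stiffness, and in the IPN pair calcium does, so it is not a test of stiffness alone. S100A7 gave -5.69 on the log2 scale (SE 1.29, adjusted p 0.231 by limma with the block), S100A8 -0.50 (SE 0.22, adjusted p 0.508) and S100A9 -0.25 (SE 0.22, adjusted p 0.758). None of the 10 passed with or without the block, where 0.015% of all genes, 2 in number, and 0.0% did. Unadjusted, 1 of the 10 and 278 of all genes had a p under 0.05 without the block, and 2 and 1320 with it. With the block, the value for S100A7 was -3.89 without stiff col replicate 1 (adjusted p 0.433 by limma) and -7.50 without stiff col replicate 2 (adjusted p 0.0243), the single one of 28 settings in which it passed.

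S100A8 and S100A9 encode the subunits of calprotectin, and their ratio was therefore followed across libraries. Per base of transcript, S100A8 had between 0.463 and 0.973 times the level of S100A9. Within each gel the ratio was higher in replicate 2, at 0.523 and 0.716 in soft IPNs, 0.688 and 0.973 in stiff IPNs, 0.463 and 0.628 in soft col:rBM and 0.471 and 0.781 in stiff col. S100A9 thus exceeded S100A8 in all 8 libraries, in counts and per base of the full canonical transcript. Fragment length was not allowed for, and at 0.973 stiff IPN replicate 2 lay close to an equal level per base. With the block, S100A8 was 0.62 higher (log2, SE 0.11, adjusted p 0.0079 by limma) in replicate 2 than in replicate 1, and S100A9 0.09 (SE 0.11, adjusted p 0.590).

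**Figure D3:**
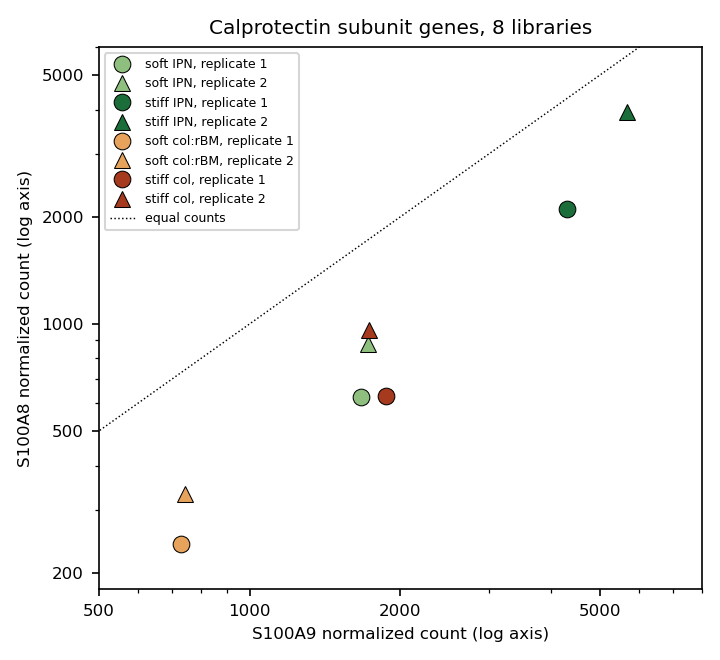
S100A8 against S100A9 in normalized counts (both axes log), 1 point per library, with the gel as colour, the replicate as shape and equal counts as a dotted line. Stiff IPN libraries lie at the top right and soft col:rBM at the bottom left, and the triangles of replicate 2 lie above the circles of replicate 1 in each gel.

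Markers of white blood cells, which carry calprotectin in blood, were read beside these genes. PTPRC, TYROBP, AIF1 and FCGR3A were at 0 in all 8 libraries, and the summed level of the 10 myeloid markers was 446 to 619 normalized counts in stiff IPNs, beside 587 to 903 in soft IPNs, 495 to 867 in soft col:rBM and 408 to 610 in stiff col. S100A12, the third myeloid S100 gene, had at most 13. Within the list CD14 and CSF1R, both receptors, made up most of the sum and ran in opposite directions. CD14 had 342 and 111 in soft IPN libraries, 412 and 194 in stiff IPN ones, 151 and 89 in soft col:rBM and 236 and 100 in stiff col, so that in both trials it was highest in stiff IPNs and lowest in soft col:rBM, as S100A8 and S100A9 were. Its change between the IPNs, 0.53 on the log2 scale (SE 0.24, adjusted p 0.216 by limma with the block), did not pass. CSF1R had 521 and 451 in soft IPN libraries and 166 and 228 in stiff IPN ones and fell by 1.31 (SE 0.27, adjusted p 0.0413 by limma with the block, 0.491 without it).

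The basal markers also moved unequally between the IPNs. KRT17, a keratin of basal and wounded epithelium, had 5552 and 18767 in soft IPN libraries, 19555 and 71907 in stiff IPN ones, 2883 and 7944 in soft col:rBM and 3049 and 13097 in stiff col. It rose by 1.88 on the log2 scale between the IPNs (SE 0.18, adjusted p 0.0067 by limma with the block, 0.568 without it) and differed by -2.57 between stiff col and stiff IPNs (SE 0.18, adjusted p 0.0030 with the block, 0.706 without it). ITGB4, a subunit of the integrin that binds laminin, had 43446 and 36407 in soft IPN libraries and 21849 and 9669 in stiff IPN ones and fell by 1.45 (SE 0.24, adjusted p 0.0293 with the block, 0.514 without it). KRT5, KRT14 and TP63 were not called between the IPNs. Between stiff col and stiff IPNs KRT14 differed by -1.52 (SE 0.27, adjusted p 0.0329 with the block, 0.854 without it), a call lost when any 1 of the soft IPN or stiff col libraries was left out. Without soft IPN replicate 2 the blocked calls of KRT17, ITGB4 and CSF1R between the IPNs were lost, and that of CSF1R also without soft IPN replicate 1 or either stiff col library. The part of these markers, CD14 included, in the S100 values was not tested.

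The other genes of the list were abundant. Per base of transcript S100A6, calcyclin, ranked 1 of 12068 genes by mean level and S100A2, a p53-binding nuclear member, 7. S100A11, S100A14, S100A10 and S100A16 ranked 32, 33, 38 and 78. S100A9, S100A8 and S100A4 ranked 262, 341 and 365, and S100A7 3136. Together the 10 genes took between 1.48% and 2.05% of all normalized counts in a library.

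S100A2 had 61920 and 102213 normalized counts in soft IPN libraries, 96348 and 103627 in the stiff IPN ones, 77359 and 100378 in soft col:rBM and 74436 and 88268 in stiff col. Its lowest and highest libraries differ 1.67-fold, and replicate 2 was the higher in each gel. S100A4 had 1276 and 2159 in soft IPN libraries and 1218 and 2087 in stiff IPN ones, so that the IPNs overlapped and differed by -0.06 on the log2 scale (SE 0.19 with the block). S100A4 overlaps S100A3 on the same strand, and how reads in the overlap were assigned is not given in the sources used here.

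S100A10, the p11 partner of annexin A2, had 30187 and 26942 in soft IPN libraries, 22439 and 23055 in stiff IPN ones, 33457 and 22232 in soft col:rBM and 25750 and 17395 in stiff col. S100A11, which binds annexin A1, lay between 18775 and 28937 in the 8 libraries. S100A16 lay between 19123 and 26363, the narrowest range of the 10 at 1.38-fold. None of these passed in any of the 4 comparisons of gels in the fits of all 8 libraries, with or without the block. S100A6 and S100A11 each overlap an antisense gene, and the library kit does not mark strand, so reads of the overlap cannot be told apart.

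S100A6 and S100A14 differed between trials by more than the largest of their 4 fitted differences between gels, which were 0.45 in size for S100A6 and 0.56 for S100A14 on the log2 scale. S100A6 had 129250 and 75920 in soft IPN libraries, 76147 and 69401 in stiff IPN ones, 139364 and 56882 in soft col:rBM and 141989 and 52953 in stiff col. S100A14, an epithelial member, had 66693 and 35491, 52353 and 29732, 62735 and 27642, and 41558 and 19324 in the same order. For both genes replicate 1 was the higher in each gel. Replicate 2 was lower by 0.90 on the log2 scale for S100A6 (SE 0.21, adjusted p 0.0173 by limma with the block) and was higher by 0.49 for S100A4 (SE 0.13, adjusted p 0.0302). For S100A14 the log2 difference was between -0.82 and -1.18 in the 4 gels (SE 0.11 and adjusted p 0.0024 in the fit). With S100A8, 4 of the 10 genes were called between trials, against 27.1% of all genes.

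**Figure D4:**
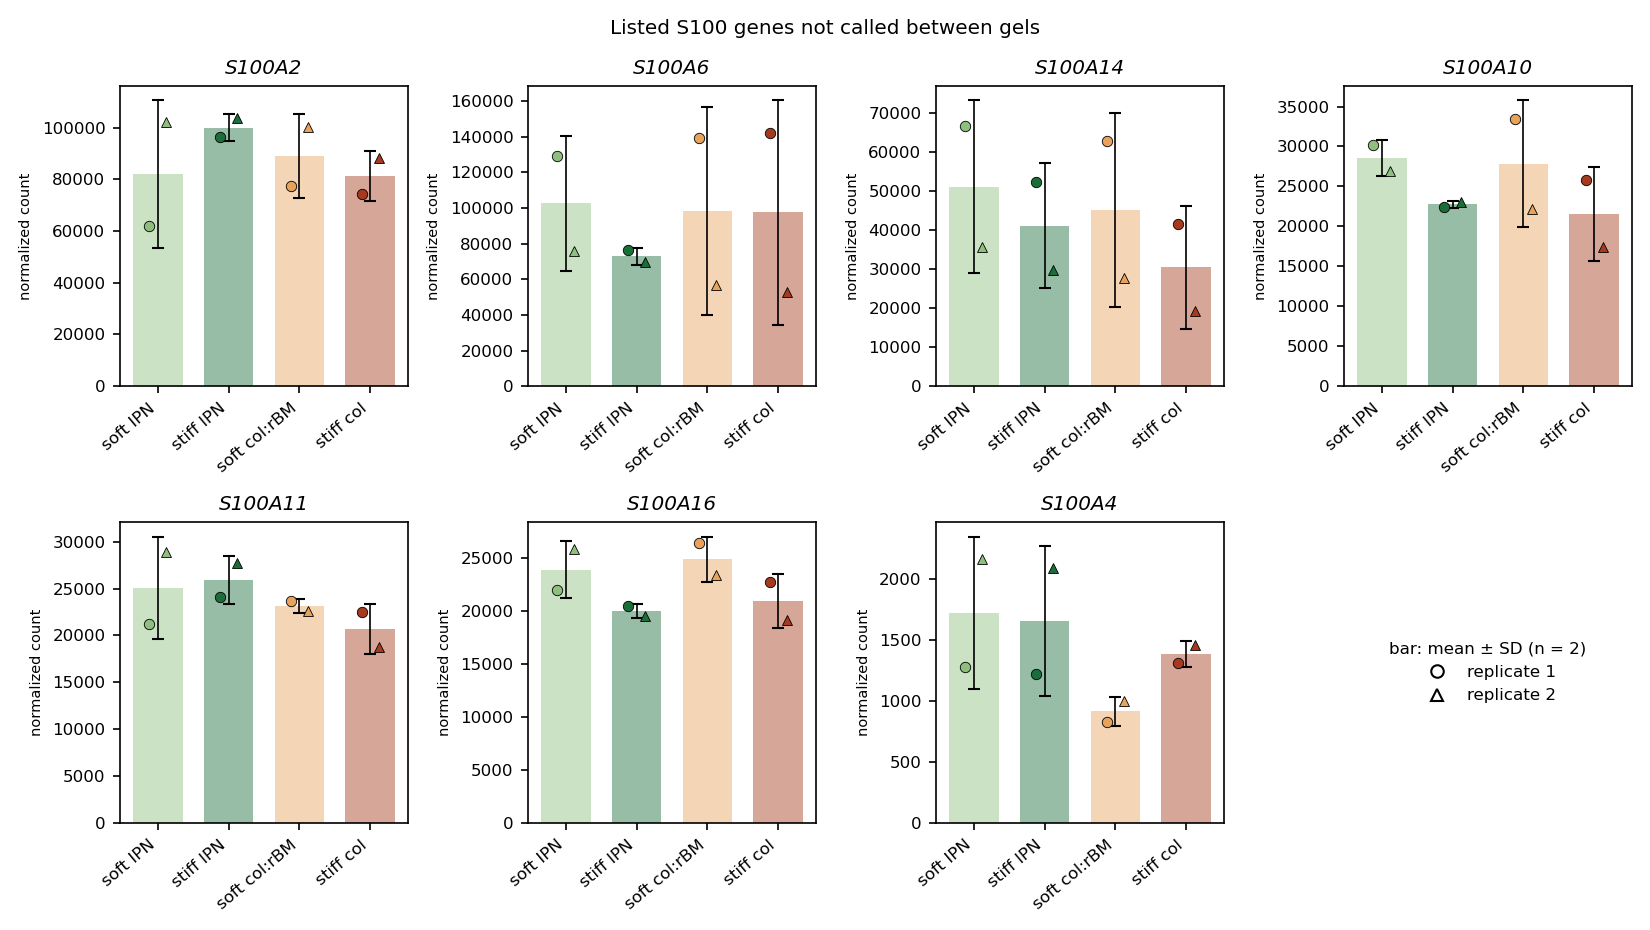
Normalized counts of the 7 genes not called between gels in the fits of all 8 libraries, as mean (bar) ± SD (n = 2) with replicate 1 as a circle and replicate 2 as a triangle. Replicate 1 lies above replicate 2 in all 4 gels for S100A6 and S100A14, and below it in all 4 for S100A2 and S100A4.

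Of 11 other S100 genes, 3 were high enough to test, and S100A3 and S100P passed with the block in the same comparisons as the calprotectin genes. S100P, which lies outside the cluster on chromosome 4 and whose protein binds RAGE, had 237 and 297 in soft IPN libraries, 796 and 1156 in stiff IPN ones, 199 and 390 in soft col:rBM and 264 and 421 in stiff col. It was 1.85 higher on the log2 scale in stiff than soft IPNs (SE 0.19, adjusted p 0.0082 by limma with the block) and 1.52 lower in stiff col than stiff IPNs (SE 0.19, adjusted p 0.0113). S100A3, known from hair cuticle, had 113 and 255, 397 and 891, 99 and 426, and 91 and 373, with changes of 1.80 (SE 0.28, adjusted p 0.0266) and -1.68 (SE 0.28, adjusted p 0.0261). Neither passed without the block, with adjusted p between 0.430 and 0.805. Between the IPNs the blocked call of S100A3 was lost without either soft IPN library and that of S100P without soft IPN replicate 2. Between stiff col and stiff IPNs both lost it without either stiff col library, and S100A3 also without either soft IPN library. S100A13, the third gene tested, lay between 3058 and 5124 normalized counts and differed by 0.03 between the IPNs (SE 0.20, adjusted p 0.947 by limma with the block). TATAAA stands 28 bases before the start of S100P and 29 before that of S100A13, and was not found within 250 bases of S100A3.

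S100A7A, the near copy of S100A7, had 9 and 14 normalized counts in stiff IPNs and 0 in the 6 other libraries. It was too low to test, and was at least 3.74-fold higher in stiff than soft IPNs and at least 4.32-fold lower in stiff col, with 3 reads per library as the floor. Of the 380 windows of 50 bases in the S100A7 transcript, 67 (17.6%) also occur in S100A7A, so reads there could not be told apart. The other 9 genes share no such window with another S100 gene. S100A1, S100A5, S100A7L2 and S100Z had at most 8, and S100B and S100G were at 0 in every library.

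**Figure D5:**
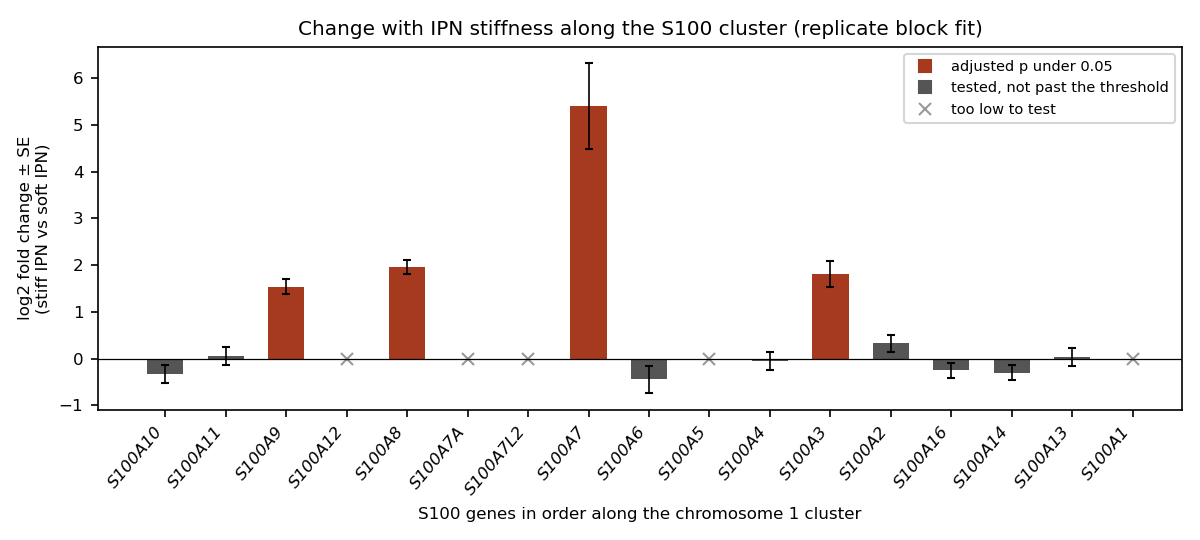
Log2 fold change between stiff and soft IPNs (± SE, limma with the trial as a block) of the S100 genes in their order along the chromosome 1 cluster, with red bars past an adjusted p of 0.05, grey bars not past it and crosses for genes too low to test. The red bars are S100A9, S100A8, S100A7 and S100A3, and tested genes between and beside them, such as S100A4 at -0.06 and S100A2 at 0.33, did not pass.

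The receptors and partners of S100 proteins were taken as a list of 24 genes, of which 23 were tested. AGER, the RAGE gene, had between 15 and 49 normalized counts, and TLR4 between 0 and 2. BSG, another receptor of calprotectin, was high at 6754 to 11587. Between the IPNs, with the block, 3 of the 23 were called, ANXA1 and PLAU upwards and CTSB downwards, against 3.83% of all genes. Between stiff col and stiff IPNs 2 were called, ANXA1 and PLAU downwards, against 2.47%. Without the block, 0 passed in limma in any comparison. Unadjusted, 4 and 2 of the 23 then had a p under 0.05 in these, beside 9.33% and 6.28% of all genes, so these unadjusted counts lie not far from the background. The shares called with the block were above those of all genes, but rest on few genes. The list was chosen with earlier results of these data known, so these shares are a description and not a test. The blocked calls between the IPNs were lost without soft IPN replicate 2 for all 3 genes, without soft IPN replicate 1 for PLAU and CTSB, and without stiff col replicate 2 for CTSB. Those between stiff col and stiff IPNs were lost for ANXA1 and PLAU when any 1 of the soft IPN or stiff col libraries was left out.

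ANXA1, the annexin that S100A11 binds, had 6875 and 5845 in soft IPN libraries, 15151 and 17420 in stiff IPN ones, 7293 and 6558 in soft col:rBM and 8412 and 7718 in stiff col. Its change between the IPNs was 1.36 on the log2 scale (SE 0.16, adjusted p 0.0131 by limma with the block, 0.3136 without it). That of S100A11 itself was 0.06 (SE 0.19). PLAU, the urokinase plasminogen activator, changed by 1.05 (SE 0.14, adjusted p 0.0189 by limma with the block, 0.4102 without it). The protease gene CTSB changed by -1.02 (SE 0.20, adjusted p 0.0377 with the block, 0.6165 without it). ANXA2, which S100A10 binds, lay between 36993 and 61577 and differed by 0.04 (SE 0.19), and MYH9, the myosin that S100A4 binds, lay between 8092 and 17909 and differed by -0.09 (SE 0.16). FABP5, which S100A7 binds, ranged from 186 to 1260, with a difference of 1.12 (SE 0.36, adjusted p 0.115), and COPS5, another partner of S100A7, from 919 to 1151.

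Genes whose levels ran most like those of single members were found by Pearson correlation of log2 values over the 8 libraries, which share gels and trials. For S100A7 they were A2ML1 (r = 0.979), MAL2, MBD2, ANKRD13A and CEACAM6. A2ML1 had 112 and 157 normalized counts in stiff IPNs and at most 16 elsewhere, and CEACAM6 98 and 83 against at most 8. For S100A8 they were PLAU (r = 0.981), S100A9 (r = 0.976), ARTN, MRPL36 and ELOVL6. For S100A9 they were AGTPBP1 (r = 0.977), S100A8, ABTB2, SAA2 and C15orf48, of which SAA2, a serum amyloid A gene, had 341 and 586 in stiff IPNs and between 16 and 151 elsewhere. The genes closest to S100A2 were MRVI1 (r = 0.976), C17orf97, ARPC2, NPL and XK, and those closest to S100A4 were PNKD (r = 0.935), ACOT1, ATP5G1, UQCRQ and UBE2D4. Several of these genes were low. MRVI1 had 3 to 12 normalized counts, XK 3 to 26, C17orf97 8 to 21 and NPL 8 to 38. ARTN had 2 to 64 and ACOT1 7 to 36. The genes were picked as the highest correlations among all tested genes, and no test was made.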

How the data were processed

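The authors trimmed the reads with Trim Galore 0.3.3, aligned them to hg19, removed unmapped, low quality and multimapped reads with SAMtools 1.1 and counted the rest per gene with HTSeq. The aligner is Bowtie2 in the methods and TopHat2 2.0.13 in the submitters' processing notes, and the annotation, strand setting and overlap mode are not given in the sources used here. The deposited values are a signal, read counts that the authors scaled by 1 factor per library with DESeq2 in R 3.2.0 and rounded. The factors were estimated from the recurrence of empty and doubled whole numbers. Of 25369 rows, 28 turned into dates were dropped.

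Genes with a value of at least 10 in at least 2 of the 8 libraries (13349) were tested on log2(value + 1) with limma 3.58.1 (statmod 1.5.0, R 4.3.3), 1 mean per gel, a variance trend and robust moderation, two-sided. P values were adjusted by Benjamini-Hochberg over all genes tested, with a threshold of 0.05. A fold change on this scale understates the change of low genes. With 2 libraries per gel an exact permutation test of 1 gene cannot go below 0.333. The method was tested on simulated data that held no difference between trials, so that test says nothing of the block or the pairing.

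What set replicate 2 apart from replicate 1 in 1 gel also did so in the others, and the study's methods describe 2 independent trials. The numbers were therefore taken to pair the libraries. Across genes, r of the log2 differences lay between 0.654 and 0.819 among soft IPN, soft col:rBM and stiff col. For stiff IPN it was lower, at 0.278 with soft IPN, 0.3935 with soft col:rBM and 0.3986 with stiff col. The pairing is thus weakest for stiff IPNs, which enter both comparisons where the replicate block moved the number called.

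Positions, transcript lengths and promoters came from GENCODE 44 lifted to GRCh37 (hg19), with Python 3.11.15, numpy 2.4.6, pandas 2.3.3 and matplotlib 3.10.9. All 10 S100 genes were named, as were other S100 genes and partners called in either fit, S100A7A, S100P, S100A12, a fixed set of partners and the 5 genes most like S100A7, S100A8, S100A9, S100A2 and S100A4. Single basal and myeloid markers and S100A13 were named after their values were seen. These genes, lists and motifs were chosen with earlier results of these data known. The alternatives were rescaling, pseudocounts of 0.5 and 5, filters, fits of the compared gels only, the trial as a block and leaving out each library. Intervals and floors from reads without molecular identifiers cover counting error only. Beyond the 5 basal markers summed, a gene of that list is not reported here.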

Additional observations from a re-analysis of the deposited data

Results flagged for a closer look

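S100A2 and S100A4 moved in opposite directions with stiffness in both trials of the 2 gel systems. For S100A2 the log2 difference between stiff and soft was 0.64 and 0.02 in IPNs and -0.06 and -0.19 in collagen gels, a difference between systems of -0.45 that did not pass (adjusted p 1.0 by limma, 0.629 with the block). For S100A4 it was -0.07 and -0.05 in IPNs and 0.66 and 0.55 in collagen gels, a difference of 0.66 that did not pass either (adjusted p 1.0, and 0.462 with the block). Several of these values are close to 0.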

How the results depend on the processing

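The replicate block, which pairs libraries of a trial, moved the number of the 10 genes called from 0 to 3 between stiff IPN and soft IPN and from 0 to 3 between stiff col and stiff IPN, and changed it in no other comparison. In both it stayed at 3 when the block was combined with TMM or median-of-ratios rescaling, no filter, a pseudocount of 0.5 or 5, or a fit of the compared gels only, and was 2 with at least 10 in every library, which removes S100A7 from the test. Without the block, a fit of the compared gels only called 1 between the IPNs, and a pseudocount of 5 called 1 between stiff col and stiff IPN, S100A7 each time. The block with a fit of the compared gels only called 6 between stiff col and soft col:rBM and 3 between soft col:rBM and soft IPN. Of all genes, the latter fit called 300 between the IPNs, 261 between stiff col and stiff IPN, 972 between stiff col and soft col:rBM and 46 between soft col:rBM and soft IPN. The block with no filter called 2, S100A8 and S100A9, in each of the last 2 comparisons, and with TMM rescaling 1, S100A8, between soft col:rBM and soft IPN. Leaving out 1 library, without or with the block, gave 0 to 3 between the IPNs, 0 to 3 between stiff col and stiff IPN, 0 to 2 between stiff col and soft col:rBM, 0 to 2 between soft col:rBM and soft IPN and 0 to 1 for the difference between gel systems. The alternatives with the block and a second choice were added after the data were seen. The planned edgeR fit was not run, because whole reads could not be recovered from the rounded values.

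Reversals were limited to values that passed in neither fit of all 8 libraries. S100A7 between stiff col and soft col:rBM, -0.29 on the log2 scale, was 0.10 with a pseudocount of 5, with or without the block, and -2.09 to 1.51 when 1 library was left out. When 1 library was left out, the stiff IPN minus soft IPN value ranged from -0.18 to 0.31 for S100A11, -0.76 to 0.15 for S100A14, -0.03 to 0.69 for S100A2, -0.45 to 0.33 for S100A4 and -0.96 to 0.07 for S100A6. The stiff col minus stiff IPN value ranged from -0.39 to 0.18 for S100A10, -1.03 to 0.07 for S100A14, -0.06 to 0.19 for S100A16, -0.59 to 0.18 for S100A4 and -0.46 to 0.97 for S100A6. The stiff col minus soft col:rBM value ranged from -0.40 to 0.06 for S100A11, -1.15 to 0.04 for S100A14, -0.31 to 0.07 for S100A2 and -0.75 to 0.67 for S100A6. Signs also changed between soft col:rBM and soft IPN for S100A2, S100A6, S100A10, S100A11, S100A14 and S100A16, with -0.80 to 0.49 for S100A6. For the difference between gel systems they changed for S100A6, S100A10, S100A11, S100A14 and S100A16, with -0.30 to 1.12 for S100A6. With 2 libraries per gel the spread rests on few values, and where a gel was left with 1 library that library was assumed to vary like the others. S100A7 outside stiff IPNs, and S100A7A, lie close to the limit of 3 reads.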
